A study of Homo sapiens with 14 samples.

Results

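Messages recovered with the EMC6 bait were set against those of the material from which the bait was pulled. The comparison used 4 of the 14 libraries of the series, chosen by bait and fraction from the labels. These were the immunoprecipitates (IP) numbered 1 and 2 and the inputs numbered 1 and 2 of the EMC6 line. They were paired by replicate number for changes per pair, while the main test compared group means without pairing. The cells were Flp-In T-REx cells, a derivative of the human embryonic kidney line HEK293 with a single docking site for transgenes and a doxycycline-controlled promoter. They lacked the EMC6 gene and expressed 3Flag-EMC6, a tagged copy, from an inducible transgene, near the endogenous level by the design text. The other lines of the series, used here only for contrast, expressed 3Flag-EMC7 (4 libraries) or 3Flag-EMC10 (6 libraries), and no knockout is named for them. All groups were given 0.5 to 1.0 ng/mL doxycycline for 72 h, and cycloheximide, which stalls ribosomes, was present at harvest. Microsomes, vesicles that form from the endoplasmic reticulum (ER) on lysis, were nuclease-treated and solubilized to give the input, Flag beads gave the IP, and the ribosome footprints left by RNase in each were sequenced and counted per gene. The labels do not say whether the line is 1 clone, and no IP from cells without a tagged bait was analysed here, so binding to the beads alone has no measured background.

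The ER membrane protein complex (EMC) is a conserved machine that inserts membrane-spanning segments of new proteins and accompanies the folding of multi-pass proteins, those whose chain crosses the membrane several times. EMC3 and EMC6 form its membrane-embedded core, with the groove through which segments pass. EMC1, EMC7 and EMC10 reach into the ER lumen, and EMC2 with EMC8 or EMC9 forms the cytosolic part. Secreted and single-pass proteins mostly enter through the Sec61 channel, and tail-anchored proteins, whose only membrane segment lies at the very end of the chain, are inserted after the ribosome has let go.

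The bait's own message was looked at first. EMC6 (chromosome 17, 3668812 to 3669665, GRCh38) had 2313 and 4142 counts in the IPs, against 51 and 85 in the inputs, and it rose by 7.54 ± 0.25 on the log2 scale (± is the standard error of the fit, SE, for every log2 change). It held 0.00301% and 0.00463% of the gene counts of the EMC6 inputs, beside 0.00336% to 0.00424% in the inputs of the other lines, which carry no named knockout. The counts cannot tell the transgene from the cells' own gene, so they do not check the knockout itself. The new chain made from this message carries the tag that the beads bind, so it is not counted below as a message bound through the complex.

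The EMC6 libraries were shallow. The IPs held 515302 and 960279 gene counts and the inputs 1692490 and 1835892. For counting error only, a count of 0 allows up to 5.82 and 3.12 counts per 1e6 gene counts in the IPs. In the inputs it allows up to 1.77 and 1.63. These limits use the unscaled library size. The CPM values given for genes are instead counts per 1e6 of the library size after TMM scaling. That scaling lowers the values of both EMC6 inputs, so gene CPM values are not on the scale of these limits. Log2 CPM of the replicates correlated across the 9458 tested genes at r = 0.911 for the IPs and 0.961 for the inputs, given without a test since genes are no replicates. Of 9 HEK293 markers 7 were detected, with sums of 617 and 897 counts in the IPs and 4204 and 4090 in the inputs, and LHX1 and NEFM were at 0. Markers of kidney tubule, podocyte, blood, liver and endothelium summed to 2 and 0 counts in the IPs and 3 and 2 in the inputs.

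Of 9458 genes tested, 1666 (17.6%) were higher and 877 (9.27%) were lower in the IPs at an adjusted p under 0.05 in edgeR's quasi-likelihood test with Benjamini-Hochberg adjustment. Of the higher genes 1655 lay above 0 in both pairs, and all 877 lower genes lay below 0 in both. The sides differed in size: 674 genes rose by over 2 on the log2 scale and 59 by over 4, while 346 fell by over 1 and 73 by over 2. Higher genes held 58.3% and 64.9% of the gene counts of the IPs, against 24.1% and 30.9% of the inputs. Across genes the changes of the pairs correlated at r = 0.68 (9458 genes, which share the scaling and the depth of their libraries).

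With a term for each pair in the fit (the replicate block) 1862 genes were higher and 1261 lower. The balance of higher and lower calls depended on the scaling. Size factors from DESeq2 gave 1803 higher and 479 lower genes, scaling to the summed lumenal lists gave 1237 and 2178, and unscaled library size gave 990 and 4320. The median log2 change of all tested genes was -0.12 with the TMM scaling used, 0.013 with size factors, -0.50 with the lumenal scaling and -0.83 with library size, so gene lists are given relative to that median. Without IP 2, 1007 genes were higher and 167 lower, and without input 1, 442 were lower.

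**Figure D1:**
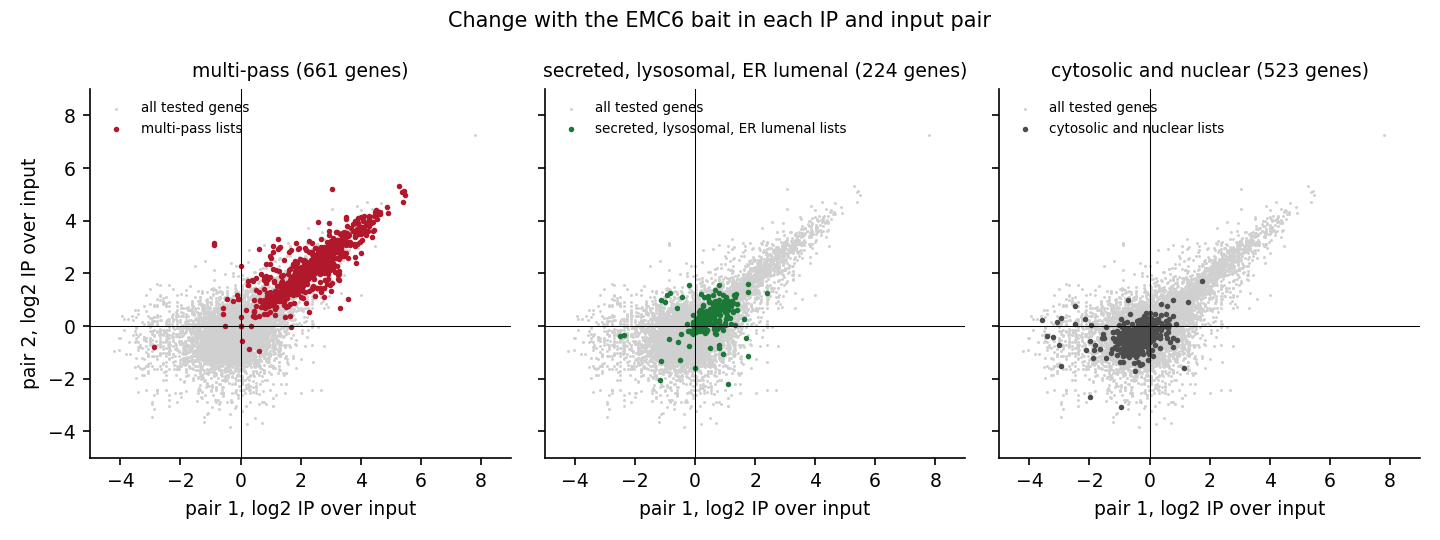
Log2 ratio of IP over input in pair 1 (x axis) and pair 2 (y axis) for the 9458 tested genes (grey) and, in colour, for members of the multi-pass, lumenal and cytosolic lists. Multi-pass members lie high on both axes, lumenal members just above 0 and cytosolic members just below 0.

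Messages of multi-pass proteins made up most of what rose among the lists. Of 661 tested members of the multi-pass lists (of 1712 symbols) 613 were higher and 0 were lower, with a median 2.55 above that of all genes, 2.44 in pair 1 and 2.34 in pair 2. Together they took 27.0% and 29.2% of the gene counts of the IPs, against 6.53% and 8.31% of the inputs. At an unadjusted p under 0.05, and by DESeq2, 0 were lower too. Without the filter on low counts 630 were higher and 0 lower, with a median 2.18 above that of all genes. With library size alone 539 were higher and 2 lower, and without IP 2, 497 were higher.

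**Figure D2:**
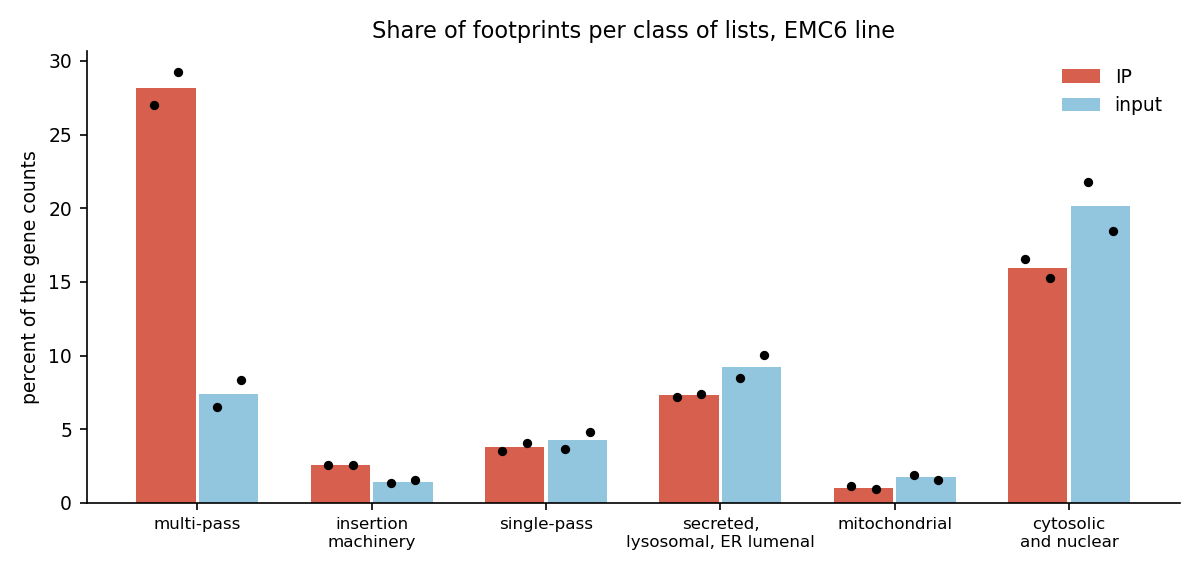
Percent of the gene counts of a library held by each class of lists, with bars at the mean of 2 libraries, IP left of input, and dots for the libraries. The multi-pass class stands at 27.0% and 29.2% in the IPs and at 6.53% and 8.31% in the inputs.

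Transporters stood near the top. Of 192 tested solute carriers (SLC proteins, which move ions, sugars and amino acids) 187 were higher, with a median 2.92 above all genes. SLC12A2, the sodium, potassium and chloride cotransporter of many epithelia (chromosome 5, 128083766 to 128189677), had 5938 and 10902 counts in the IPs, against 708 and 999 in the inputs, which is 11522 ± 594 CPM in the IPs and 299 ± 60.7 CPM in the inputs (SD, n = 2 each, as for every mean CPM below). Its rise was 5.27 ± 0.19 with an adjusted p of 4.72e-22, and it was 1 of 5 messages over 1% of the gene counts of an EMC6 library. SLC9A3, a sodium and proton exchanger, had the largest rise of the named genes after EMC6, 6.60 ± 0.86, but rests on 5 and 28 counts in the IPs and 1 and 0 in the inputs.

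All tested members of several SLC families were higher. These were 10 of 10 SLC9 exchangers of sodium and protons (median log2 change 3.51), 7 of 7 SLC7 carriers of amino acids, 9 of 9 SLC16 carriers of monocarboxylates and 23 of 23 SLC35 carriers, many of which bring nucleotide sugars into the Golgi. The zinc transporters of the SLC39 family had the lowest median, 1.96, among the SLC families with at least 5 tested members in the list of solute carriers of the secretory pathway and plasma membrane, which leaves out the mitochondrial SLC25 carriers, with 9 of 9 higher. P-type ATPases, pumps that use ATP to move ions and lipids, were higher in 26 of 27 tested members. ATP11B, a lipid flippase, led them (4.11 ± 0.22), at 1179 ± 211 CPM in the IPs and 68.4 ± 24.7 CPM in the inputs. All 17 tested ABC transporters (of 35 symbols) were higher. Among them were TAP2, which brings antigenic peptides into the ER (4.48 ± 0.45), and ABCC4, an exporter of cyclic nucleotides and drugs. ABCC4 stood at 5413 ± 500.0 CPM in the IPs and 245 ± 34.9 CPM in the inputs.

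Channels moved alike. Pore subunits of voltage-gated and TRP channels were higher in 43 of 48 tested members (of 142 symbols). Anoctamins, CLC, LRRC8, PIEZO and related channels were higher in 38 of 41 (of 58 symbols). Since rare messages can pass the filter on low counts through their IPs alone, such shares can run high, also among the transporters above. Pore subunits of voltage-gated calcium channels, which hold all the repeats of the channel unit in 1 chain, had the highest median of the families described, 5.22 on the log2 scale over 5 tested members, all of them higher. CACNA1C (chromosome 12, 1970780 to 2697950) had 116 and 365 counts in the IPs, against 11 and 35 in the inputs. CACNA1B had 40 and 132 counts in the IPs, against 3 and 8 in the inputs, and CACNA1D had 84 and 157 counts in the IPs, against 8 and 17 in the inputs. Each IP lay above each input for these 3 genes, in counts and after scaling, although the input counts are low. PIEZO1, a mechanically gated channel, was deeper and rose by 3.67 ± 0.20, with 3059 ± 598 CPM in the IPs and 241 ± 61.2 CPM in the inputs.

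Enzymes of the ER membrane followed. Of 75 tested multi-pass enzymes of lipid and sterol synthesis 70 were higher, among them PTDSS1, which makes phosphatidylserine, at 2410 ± 56.4 CPM in the IPs and 113 ± 11.7 CPM in the inputs (4.42 ± 0.18). Of 41 tested enzymes that build GPI anchors and N-glycan precursors or attach mannose 39 were higher, led by PIGV (4.57 ± 0.29), a mannosyltransferase of the GPI anchor. Ubiquitin ligases and proteases of the ER membrane were higher in 28 of 32 tested members, with RNF26 at 817 ± 85.0 CPM in the IPs and 21.2 ± 5.39 CPM in the inputs. MARCHF6, a ligase that marks ER and cytosolic proteins for degradation, held over 1% of the gene counts of the IPs, with 6317 and 13259 counts in the IPs, against 1700 and 2526 in the inputs. For each of these named enzymes both IP values lay above both input values after scaling.

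**Figure D3:**
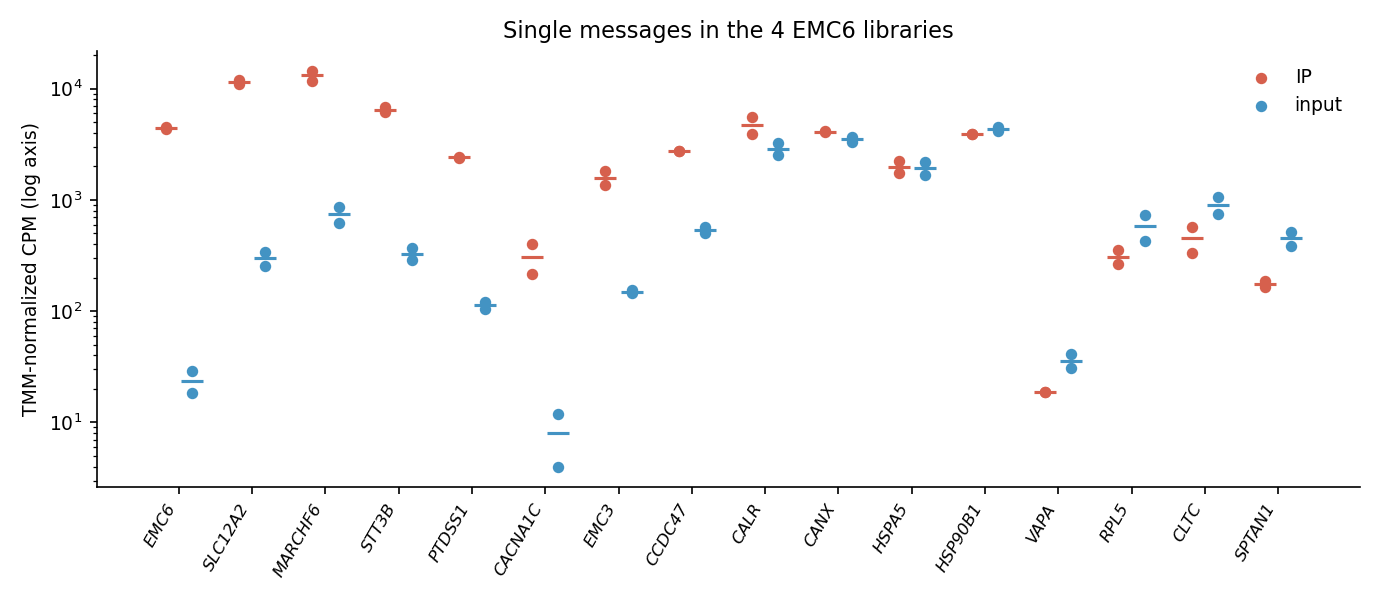
TMM-normalized CPM (log axis) of single messages in the 4 EMC6 libraries, IP left of input, with a dot per library and a line at the mean. The IPs lie far above the inputs for SLC12A2, MARCHF6, STT3B and PTDSS1, close to them for CANX, HSPA5 and HSP90B1, and below them for CLTC and SPTAN1.

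The multi-pass lists were not alike. Class A receptors, G protein-coupled receptors that mostly lack a signal peptide, had a median 2.55 above all genes, with 24 of 30 tested members higher (of 614 symbols). Rare messages can pass the filter on low counts through their IPs alone, which can raise the median and the share called higher in such a list. Frizzled, adhesion and other receptors made with a signal peptide had a median 1.46 above, with 41 of 48 higher, and tetraspanins, claudins, connexins and similar proteins 1.62 above, with 45 of 52 higher. The interquartile ranges of the log2 change in these lists were 1.76 to 2.70, 0.87 to 1.76 and 1.14 to 1.85, and the differences between lists were not tested. Among receptors with a signal peptide, the Frizzled receptors for Wnt ligands had a median change of 1.87 (9 of 9 higher) and the adhesion receptors, with their long extracellular domains, 0.86 (10 of 11 higher).

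**Figure D4:**
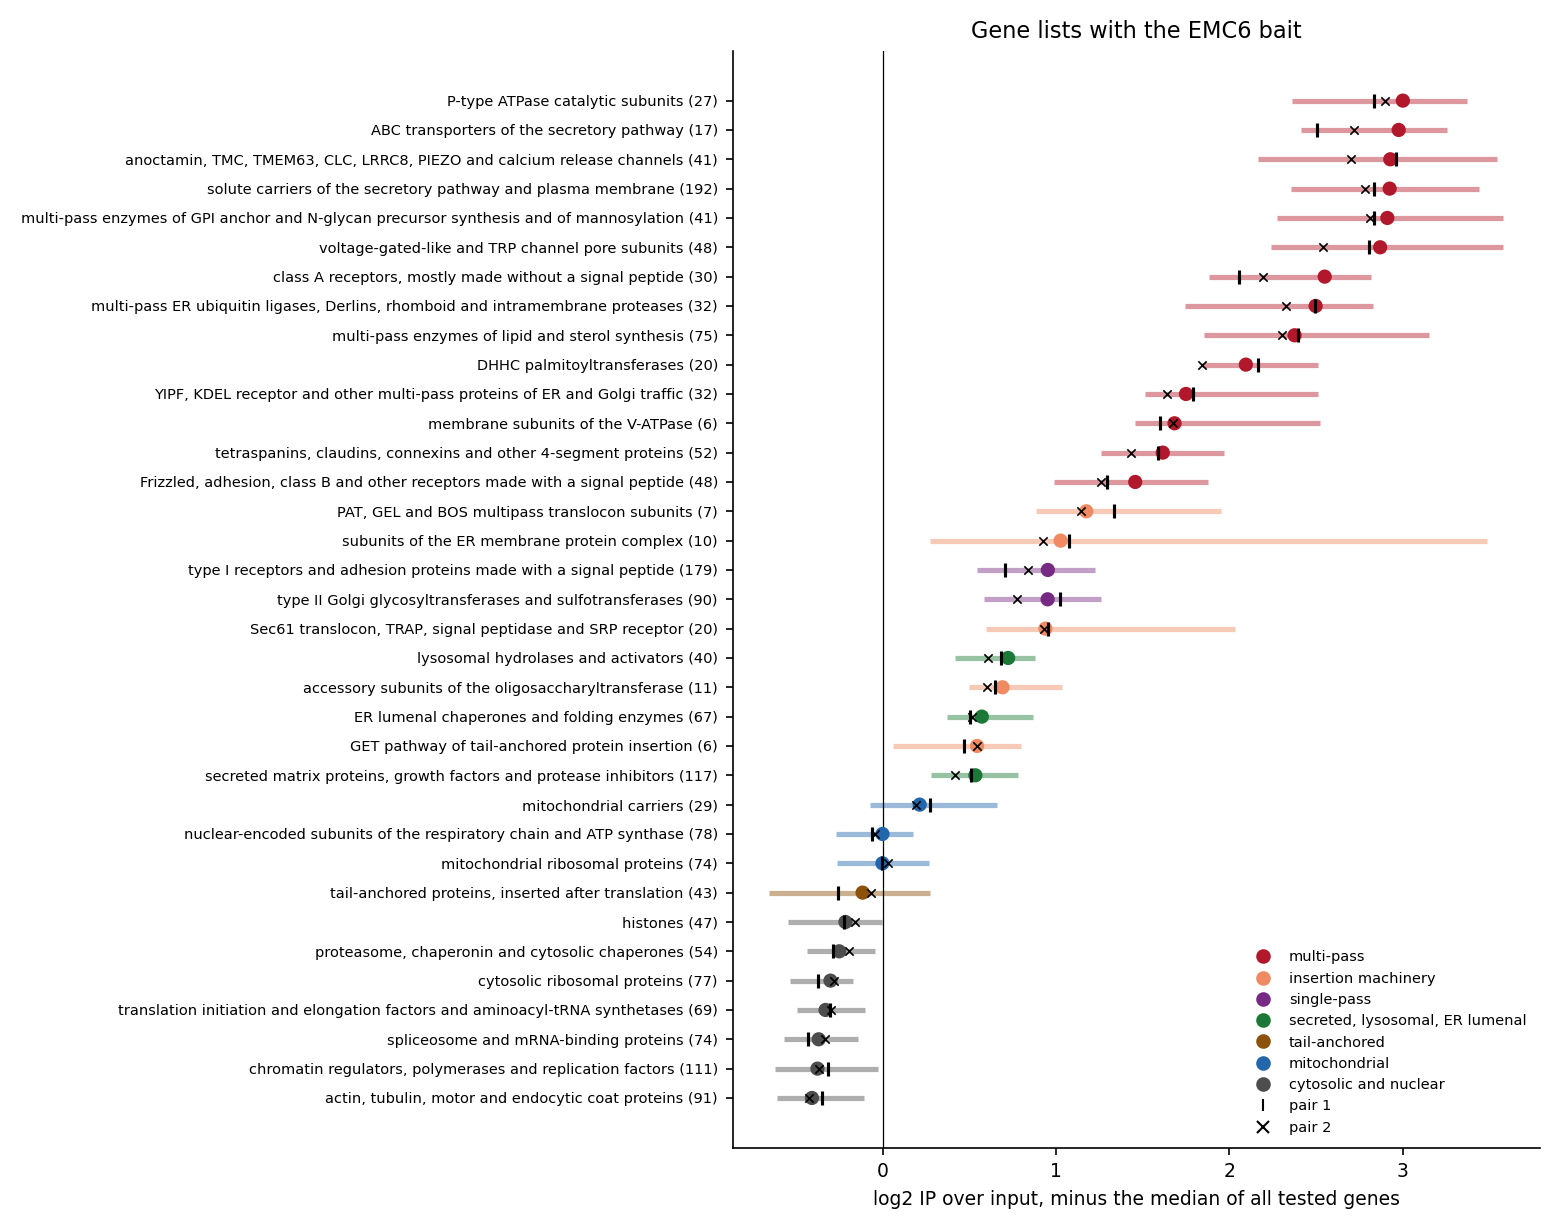
Median log2 IP over input of each list minus the median of all tested genes (large dots, coloured by class), with bars over the interquartile range of the members, a vertical tick for pair 1, a cross for pair 2 and the number tested in brackets. Pumps, transporters and channels lie near 3, single-pass and lumenal lists between 0.5 and 1, and cytosolic lists below 0.

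Complexes that join multi-pass subunits to partners with a single membrane segment put both kinds side by side. They were chosen after other values had been seen. In 6 such complexes all 17 tested subunits taken as multi-pass were higher, by 1.46 to 4.30 on the log2 scale. The choice did not take in every subunit of each complex, so this range holds only for those chosen. Of 12 tested subunits taken as single-pass 4 were higher, with changes from -0.29 to 0.90. With the replicate block 6 of the 12 were higher, BSG (adjusted p = 3.38e-06) and NCSTN beside SLC3A2, PIGT, RPN1 and DDOST. ATP1B1, a single-pass subunit of the pump that sets the sodium gradient, had 85 and 208 counts in the IPs, against 429 and 635 in the inputs (0.076 ± 0.20, adjusted p = 0.823), and after scaling its IP and input values overlapped.

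In the oligosaccharyltransferase, which adds N-glycans, the catalytic STT3A and STT3B rose by 4.097 ± 0.17 and 4.30 ± 0.17, and the single-pass RPN1 and DDOST by 0.42 ± 0.16 and 0.57 ± 0.16. Its accessory subunits KRTCAP2 (1.32 ± 0.20), DAD1 (1.22 ± 0.20), TMEM258 (1.07 ± 0.30) and MAGT1 (0.76 ± 0.17) were not sorted into either kind. Each rose by less than 1.46, the lowest rise of the chosen multi-pass subunits, and MAGT1 by less than the single-pass PIGT (0.90 ± 0.18). Were they counted as multi-pass, the ranges of both kinds would overlap. Of 11 tested accessory subunits 7 were higher and 4 were not called. In gamma-secretase, a protease inside the membrane, the catalytic PSEN2 and the scaffolds APH1A and APH1B rose by 2.15 to 2.88. NCSTN, the subunit that takes in substrate, changed by 0.33 ± 0.18 (adjusted p = 0.175, and 0.00942 with the replicate block). The amino acid exchangers SLC7A5, SLC7A6, SLC7A7, SLC7A8 and SLC7A11 rose by 2.43 to 4.23, and SLC3A2, the heavy chain they pair with, by 0.88 ± 0.22. In the GPI transamidase, which attaches proteins to their lipid anchor, the multi-pass PIGU rose by 2.87 ± 0.20 and GPAA1 by 1.46 ± 0.20, the single-pass PIGT by 0.90 ± 0.18, and PIGS, counted with neither kind, by 0.61 ± 0.20, while the single-pass catalytic PIGK changed by 0.23 ± 0.18 (adjusted p = 0.384).

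Among the 10 EMC subunits 6 messages were higher, EMC6 included, and 0 were lower. The membrane-embedded EMC3 had 969 and 1243 counts in the IPs, against 402 and 449 in the inputs, and rose by 3.40 ± 0.18. EMC4, another subunit of the membrane part, rose by 3.67 ± 0.19. EMC7, which carries no tag in this line, had 386 and 1409 counts in the IPs, against 301 and 378 in the inputs, and rose by 3.26 ± 0.26. MMGT1 (also called EMC5) rose by 1.06 ± 0.27 and EMC1 by 0.76 ± 0.16, calls that were both lost with library size alone and against a fold of 1.5, that of MMGT1 also without IP 2 and that of EMC1 also with the EMC6 libraries alone. EMC10 changed by 0.48 ± 0.21 (adjusted p = 0.0951, and 0.00103 with the replicate block), and the cytosolic EMC2, EMC8 and EMC9 by -0.32 ± 0.40, 0.04 ± 0.45 and -0.44 ± 0.74, each with 14 or fewer counts in either IP.

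Other insertion machinery was mixed. Of 7 tested subunits of the PAT, GEL and BOS complexes, which join Sec61 for multi-pass chains, 5 were higher. CCDC47 of the PAT complex had 2746 ± 22.6 CPM in the IPs and 539 ± 49.0 CPM in the inputs (2.35 ± 0.16), and TMEM147 of the BOS complex rose by 2.37 ± 0.21. Of 20 tested subunits of the Sec61 translocon, the TRAP complex, signal peptidase and the signal recognition particle receptor 13 were higher, among them SEC61A1, the channel itself (1.87 ± 0.18), and SRPRB, a subunit of the signal recognition particle receptor (2.34 ± 0.20). SEC61B, a tail-anchored subunit, had 17 and 7 counts in the IPs, against 45 and 56 in the inputs (-0.059 ± 0.42, adjusted p = 0.942). In the GET pathway, which inserts tail-anchored proteins, GET1 (0.87 ± 0.28) and CAMLG (0.73 ± 0.25) were higher of 6 tested. Both calls were lost with library size alone, with scaling on the lumenal lists, with the EMC6 libraries alone, against a fold of 1.5, without IP 2 and without input 1. The median change of that list was 0.42 with the scaling used but -0.29 with library size alone.

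Single-pass lists had lower medians than each of the multi-pass lists, the lowest of which stood 1.46 above all genes, a difference not tested. Of 179 tested type I receptors and adhesion proteins 109 were higher and 0 lower, and of 90 tested type II Golgi enzymes, which add sugars and sulfate, 47 were higher and 0 lower, both with a median 0.95 above all genes. In shares of counts the single-pass lists did not gain, with 3.48% and 4.06% in the IPs and 3.64% and 4.82% in the inputs. Of the 269 tested members 1 was lower at an unadjusted p under 0.05, and 0 by DESeq2. Of these 269 members 156 were higher, but 40 were without IP 2 and 98 without input 1, and with library size alone 29 were higher and 29 lower. RET, a receptor tyrosine kinase (2.11 ± 0.35), PCDH10, a protocadherin (2.103 ± 0.65), TGFBR2, a receptor for TGF-beta (1.87 ± 0.29), and ACVRL1, a receptor of the same family (1.83 ± 0.46), had the largest rises of the type I list by the naming rule, and all 4 calls were lost without IP 2. PCDH10 rests on 4 and 14 counts in the IPs and 5 and 11 in the inputs. Clustered protocadherins, chosen after values were seen, were higher in 21 of 25 tested members, but they share exons, so how their reads were split is uncertain. The TMED family of cargo receptors had a median change of 0.25, with 3 of 8 higher.

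Proteins that end in the lumen were closer to the middle. Of 224 tested secreted, lysosomal and ER lumenal messages 68 were higher and 0 lower (113 higher with the replicate block, 22 without IP 2, 37 without input 1, 105 without IP 1 and 124 without input 2). Their median was 0.57 above that of all genes, and the change itself was 0.45 with the scaling used but -0.26 with library size alone, where 5 were higher and 50 lower. With the scaling used 1 was lower at an unadjusted p under 0.05, and 0 by DESeq2. They held 7.17% and 7.41% of the counts of the IPs, against 8.44% and 10.0% of the inputs. Abundant chaperones differed in their calls. CALR, a lectin chaperone, had 2945 and 3565 counts in the IPs, against 8893 and 7445 in the inputs, and was higher (0.71 ± 0.19). HSPA5, the Hsp70 of the ER, changed by 0.034 ± 0.18 (adjusted p = 0.918), HSP90B1, its Hsp90, by -0.15 ± 0.15 (adjusted p = 0.506), and CANX, the membrane-bound relative of CALR, by 0.23 ± 0.15 (adjusted p = 0.267, and 0.0035 with the replicate block).

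Within the lumenal lists lysosomal enzymes were higher in 19 of 40 tested members, ER lumenal chaperones and folding enzymes in 27 of 67 (41 with the replicate block) and secreted proteins in 22 of 117 (46 with the block). The share of secreted proteins called higher, 18.8%, is near the 17.6% of all tested genes. The median changes of all 3 lists turned negative with library size alone, to -0.10, -0.26 and -0.29 in that order. SMPD1, acid sphingomyelinase, led the lysosomal list (1.81 ± 0.36), followed by ARSA, arylsulfatase A (1.54 ± 0.25), and GAA, acid alpha-glucosidase (1.30 ± 0.25). SMPD1 had 11 and 26 counts in the IPs, against 15 and 26 in the inputs, and after scaling both IPs lay above both inputs.

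Of 43 tested tail-anchored proteins (of 57 symbols) 0 were higher, by edgeR's test or with the replicate block, and 5 were lower, with a median 0.12 below all genes. The share lower, 11.6%, is near the 9.27% of all tested genes, of which 17.6% were higher. Without IP 2 the counts were 2 higher and 0 lower, and with library size alone 0 higher and 16 lower. Before adjustment 2 were higher and 6 lower at a p under 0.05, and DESeq2 called 0 in either direction. They were rare, at 0.0559% and 0.0443% of the counts of the IPs and 0.100% and 0.0936% of the inputs. STX7, a vesicle fusion protein, had 4 and 2 counts in the IPs, against 42 and 40 in the inputs (-1.78 ± 0.54). VAPA, a protein of ER contact sites, had 10 and 17 counts in the IPs, against 113 and 90 in the inputs (-0.94 ± 0.32), and GOSR1, a SNARE of the Golgi, had 1 and 2 counts in the IPs, against 33 and 25 in the inputs. The falls of VAPA and RHOT1 were no longer called with DESeq2 size factors.

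Mitochondrial messages stayed near the middle, with a median 0.0037 above that of all genes, 8 of 181 tested members higher and 8 lower. That is 4.42% on each side, against 17.6% higher and 9.27% lower among all tested genes. The counts followed the scaling and the libraries, with 3 higher and 107 lower with library size alone, 3 and 33 with scaling on the lumenal lists, 10 and 3 with DESeq2 size factors, 7 and 17 without input 2, and 3 and 3 without IP 2. MTCH1, an insertase of the mitochondrial outer membrane, had 37 and 88 counts in the IPs, against 79 and 79 in the inputs (1.61 ± 0.23), and NDUFA9, a subunit of complex I, had 166 and 231 counts in the IPs, against 337 and 268 in the inputs (1.39 ± 0.19). The other higher members were SLC25A44, SLC25A17, COX4I1, NDUFA13, MRPL36 and MRPS6, with rises of 0.50 to 2.05, and the changes of SLC25A17, COX4I1 and NDUFA13 fell below 0 with library size alone.

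Cytosolic and nuclear lists had negative medians, and 27.2% of their tested members were lower, against 9.27% of all tested genes. Of 523 tested members 142 fell and 1 rose, with a median 0.35 below all genes, and 244 fell with the replicate block, 23 without IP 2, 50 without input 1 and 225 without input 2. The count was 457 with library size alone, 327 with the lumenal lists as scale, 66 with DESeq2 size factors and 64 by the DESeq2 test. Ribosomal proteins fell in 31 of 77 tested members (56 with the block), translation factors and aminoacyl-tRNA synthetases in 16 of 69 (31 with the block), and proteasome, chaperonin and cytosolic chaperones in 12 of 54 (24 with the block). Histones fell in 8 of 47 (16 with the block), splicing proteins in 23 of 74 (39 with the block), cytoskeletal and coat proteins in 27 of 91, and nuclear factors in 25 of 111 (40 with the block). SPTAN1, a spectrin chain, had 100 and 151 counts in the IPs, against 1423 and 1126 in the inputs, and fell by 1.36 ± 0.21 on the log2 scale. CLTC, the clathrin heavy chain, had 307 and 306 counts in the IPs, against 2958 and 2166 in the inputs (-1.01 ± 0.20), and EIF5B, which joins the ribosomal subunits, had 62 and 65 counts in the IPs, against 637 and 537 in the inputs (-1.19 ± 0.22). After scaling both IPs lay below both inputs for these 3 genes.

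The 12 largest falls by the naming rule all rest on 5 or fewer counts in each IP. ITSN2, an endocytic scaffold, had 3 and 2 counts in the IPs, against 69 and 55 in the inputs (-2.64 ± 0.53). GOLGA3, a coiled-coil protein on the cytosolic face of the Golgi, had 4 and 2 counts in the IPs, against 60 and 61 in the inputs (-2.34 ± 0.53), and KIN, a nuclear DNA-binding protein, had 2 and 5 counts in the IPs, against 77 and 54 in the inputs (-2.25 ± 0.48). The others were TSTD2, MPHOSPH6, TBP, KIAA0586, CCDC174, GOSR1, AFF2, CDK11B and ISY1-RAB43, and without IP 2 just 2 of the 12 were still called. The 12 largest rises (EMC6, SLC9A3, CACNA1B, CACNA1C, SLC12A2, RNF26, CACNA1D, ASB13, TMEM115, XKR5, EVX1 and PIGV) were called under every alternative run that tested them.

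A few messages of cytosolic or nuclear proteins rose, and for LSM4, MAP4 and EVX1 the level in the EMC6 line was also far from that in the other lines. LSM4, a splicing protein and the 1 riser of the cytosolic lists, held 7.91% and 9.28% of the counts of the IPs, against 3.69% and 4.78% of the inputs (1.73 ± 0.16). It had 62386 and 87716 counts in the EMC6 inputs, against 175 to 281 counts in the inputs of the EMC7 and EMC10 lines. MAP4, a microtubule-binding protein, held 3.37% and 4.15% of the IPs, against 1.69% and 2.59% of the inputs (1.52 ± 0.19), and its 28637 and 47463 counts in the EMC6 inputs compare with 249 to 426 in the inputs of the other lines. ASB13, an adaptor of ubiquitin ligases, had 46 and 67 counts in the IPs, against 7 and 6 in the inputs (5.08 ± 0.36). EVX1, a homeobox transcription factor, had 29 and 40 counts in the IPs, against 8 and 3 in the inputs, and 0 counts in all 10 libraries of the other lines. What gives LSM4, MAP4 and EVX1 their level in the EMC6 line was not tested.

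Set against the other baits, the change with EMC6 differed from the mean of the changes with EMC7 and EMC10 in 13 of the 9458 genes, with 10 (0.106%) higher and 3 (0.0317%) lower by edgeR's test of the difference. Beside EMC6 itself (6.41 ± 0.27), the higher ones were ASB13 (4.58 ± 0.53), MAP4 (2.35 ± 0.24), CACNA1B (2.33 ± 0.49), LSM4 (1.71 ± 0.20), SLC12A2 (1.67 ± 0.19), CYB561D2 (1.61 ± 0.29), TMEM179B (1.30 ± 0.25), SLC35B2 (1.09 ± 0.24) and ZFYVE27 (1.03 ± 0.23), the last 2 chosen after their values were seen. SLC12A2 rose with each bait, by 5.27 with EMC6, 3.98 with EMC7 and 3.21 with EMC10. Its inputs had 708 and 999 counts in the EMC6 line, 3379 and 2370 in the EMC7 line and 2657, 3093 and 2696 in the EMC10 line. After scaling its EMC6 inputs lay below all other inputs, while its EMC6 IPs lay between the EMC7 IPs and above the EMC10 IPs. CACNA1B had 3 and 8 counts in the EMC6 inputs, against 20 to 56 in the others, and its scaled IPs overlapped across baits. What sets these input levels was not tested. LSM4 changed by 1.73 with EMC6, 0.075 with EMC7 and -0.045 with EMC10, and MAP4 by 1.52, -0.88 and -0.78 in that order. The 3 lower ones were EMC10 (-3.48 ± 0.24), which is the bait of a line in the contrast, GUSB, a lysosomal enzyme (-1.11 ± 0.23), and PIGK of the GPI transamidase (-1.09 ± 0.21). GUSB changed by 0.69 with EMC6, 2.15 with EMC7 and 1.44 with EMC10, and PIGK by 0.23, 1.62 and 1.02. With the replicate block 278 genes were higher and 194 lower. Without IP 1, 120 were higher, without input 2, 154 were higher and 10 lower, without input 1, 44 were lower, and without IP 2, 9 were lower.

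**Figure D5:**
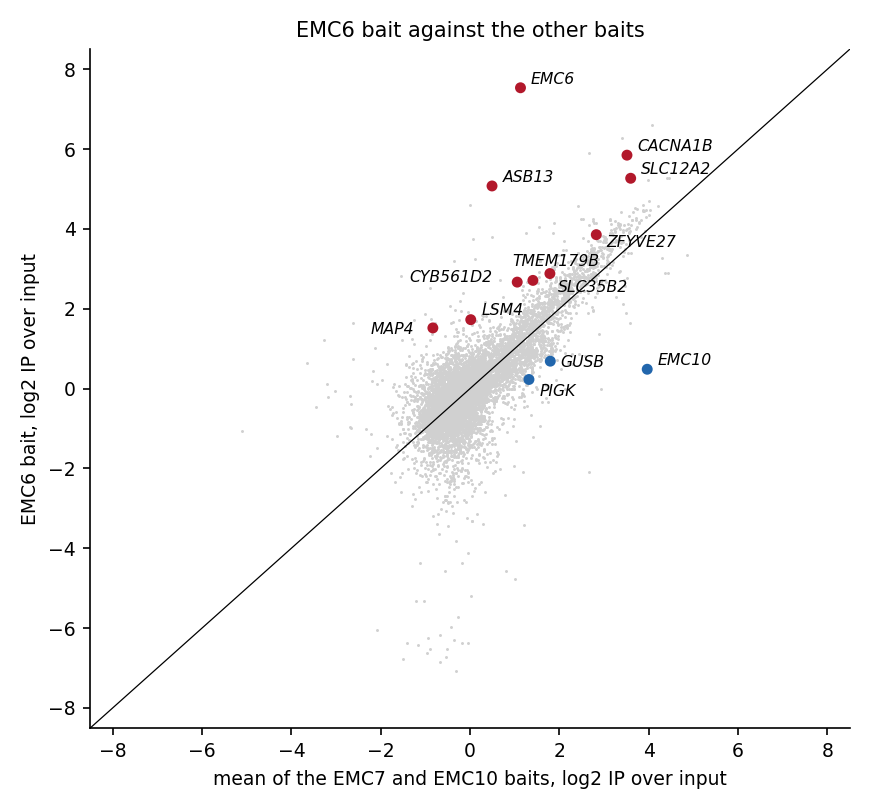
Log2 IP over input with the EMC6 bait (y axis) against the mean of the EMC7 and EMC10 baits (x axis) for the 9458 tested genes, with the line of equality. Named in red are the 10 genes higher and in blue the 3 lower with EMC6 by the test of the difference.

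The lines differ in more than the bait, as a knockout is named only for the EMC6 line and its inputs and IPs are shallower than those of the others. Relative to all genes, solute carriers had a median of 2.92 with EMC6, 2.45 with EMC7 and 2.55 with EMC10, and class A receptors 2.55, 1.88 and 1.796 in that order. The single-pass lists stood at 0.95 with EMC6, 1.35 with EMC7 and 0.99 with EMC10, and lysosomal enzymes at 0.72, 1.21 and 0.72. No member of the single-pass lists passed the test of the difference, and differences between list medians were not tested.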

How the data were processed

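Ribosome footprints were measured in 14 libraries, 4 of them from the EMC6 line. The authors deposited raw counts of footprints for each gene symbol, as whole numbers and without normalization. The submitters' processing notes name hg38, cutadapt 4.1, Bowtie2 2.2.6 and TopHat2 2.1.0. Gene annotation, strand setting and duplicate removal were not given in the sources used here. Reads of overlapping or antisense genes may therefore be mixed. Entries that name no gene (9.28% to 12.5% of all counts in the EMC6 libraries) were dropped. Positions come from RefSeq (GRCh38), which matched 18964 of 19440 symbols.

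Groups of line and fraction were fitted together over the 14 libraries with edgeR 4.0.16 in R 4.3.3 (TMM scaling, filterByExpr, which kept 9458 genes, robust quasi-likelihood test, Benjamini-Hochberg adjustment at 0.05). The contrasts were EMC6 IP minus EMC6 input, and that change minus the mean of the EMC7 and EMC10 changes. Pair changes used log2 CPM with a prior count of 2. The labels do not say that replicates are separate cultures, so the p-values reflect only the spread among these samples, possibly technical. Replicate libraries differed by more than counting error, most of all in the EMC6 line. The chi-square over degrees of freedom was 8.62 for the EMC6 inputs and 4.79 for the EMC6 IPs, against 2.09 to 3.27 for pairs in the other lines. The fit shares the spread of a gene over all groups, so it may understate that of the EMC6 groups. Same-numbered samples are pairs, since each IP was taken from its input by the labels' protocols. Their deviations from the group means correlated at 0.27, the same for both pairs since there are 2 replicates.

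The comparison and its 35 gene lists were chosen with earlier results of these data known. Genes were named by rule: the 12 largest rises and falls (at least 10 CPM in the higher fraction, 30 counts in all, same direction in both pairs), the 10 EMC subunits, up to 4 called members per list, called members that moved against their list, up to 8 differences per side, messages over 1% of a library, and messages above 20 CPM in the IPs with at most 3 counts in the inputs, of which there were 0. Any other gene, family or complex was chosen after values were seen. Alternatives were other scalings, DESeq2 1.42.0, no filter, the EMC6 libraries alone, the replicate block, a test against a fold of 1.5, leaving out bait and abundant messages, and leaving out each EMC6 library. The fit was tested on simulated data. Protein sequences were not used here.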

Additional observations from a re-analysis of the deposited data

Results flagged for a closer look

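In 13 genes the change with the EMC6 bait differed from that with the other baits by edgeR's test of the difference itself. On the log2 scale the difference, EMC6 minus the mean of EMC7 and EMC10, was 6.41 for EMC6, 4.58 for ASB13, 2.35 for MAP4, 2.33 for CACNA1B, 1.71 for LSM4, 1.67 for SLC12A2, 1.61 for CYB561D2, 1.30 for TMEM179B, 1.09 for SLC35B2 and 1.03 for ZFYVE27. It was -3.48 for EMC10, -1.11 for GUSB and -1.09 for PIGK. EMC6 and EMC10 are baits of lines in the contrast. ASB13 had 46 and 67 counts in the EMC6 IPs and 7 and 6 in the EMC6 inputs, and 10 and 6 counts in the EMC7 IPs and 12 and 12 in the EMC7 inputs. What these differences come from was not tested.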

How the results depend on the processing

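The count of higher genes (1666) stayed within a factor of 1.5 under each alternative except library size alone (990) and leaving out 1 EMC6 library (1007 to 1973). The count of lower genes (877) was 479 with DESeq2 size factors, 4320 with library size alone, 2178 with scaling on the lumenal lists, 336 with DESeq2, 136 with the EMC6 libraries alone, 110 against a fold of 1.5, 520 without bait and abundant messages, and 167 to 1160 without 1 EMC6 library. Without IP 2, 989 of the higher and 138 of the lower genes were called again. The replicate block gave 1862 higher and 1261 lower genes. The difference from the other baits (10 higher, 3 lower) gave 489 and 5 with library size alone, 134 and 10 with the lumenal scaling, 57 and 16 with DESeq2, 22 and 14 without the filter, 278 and 194 with the replicate block, 5 and 1 against a fold of 1.5, 31 higher without abundant messages, and 7 to 154 higher and 3 to 44 lower without 1 EMC6 library. With the EMC6 libraries alone 566 multi-pass, 59 single-pass and 14 lumenal members were higher and 9 cytosolic members lower. Of 159 named and called genes 81 were called under all 14 alternatives, and 7 under the 13 that tested them. Changes without 1 EMC6 library ran from -0.012 to 1.39 for GET1 and from -0.21 to 1.78 for WNT10B, both lowest without IP 2. With library size alone the change was -0.023 for SLC25A17, -0.21 for COX4I1, -0.20 for NDUFA13, -0.024 for GUSB and -0.48 for PIGK. The causes were not tested, beyond fewer samples in the fits that drop libraries, which take the spread of a lone sample from the other groups. The planned comparison by predicted hydrophobic segments and its thresholds was not run, for want of protein sequences. Depth limits rare messages, most of all in IP 1.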

Other observations

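Outside the lists, 787 genes were higher and 722 lower in the EMC6 IPs. The families and genes below were chosen after their values were seen, and none has a test beyond the fit across all genes. Cytochrome P450 enzymes oxidize steroids, fatty acids and drugs. They are mostly held to the ER by a single segment at the start of the chain. Of 13 tested members (of 56 symbols) 12 were higher, with a median 2.45 above all genes. CYP51A1, an enzyme of cholesterol synthesis, had 639 and 1401 counts in the IPs, against 967 and 1203 in the inputs (1.84 ± 0.17), and CYP2S1 had 56 and 190 counts in the IPs, against 46 and 80 in the inputs (2.87 ± 0.26). CYP26B1, which degrades retinoic acid, was not called at 0.61 ± 0.63, with 2 and 9 counts in the IPs, against 11 and 17 in the inputs.

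All 6 tested adenylyl cyclases, the enzymes that make cyclic AMP, were higher (median change 3.16), as were 8 of 8 membrane progestin and adiponectin receptors (median 2.35) and 4 of 4 PCNX proteins (median 3.29). STING1, the ER sensor of cyclic dinucleotides, had 216 and 509 counts in the IPs, against 50 and 105 in the inputs (4.16 ± 0.23). UNC93B1, which escorts Toll-like receptors, had 145 and 412 counts in the IPs, against 43 and 77 in the inputs (4.12 ± 0.24), and LMF2, an ER protein related to the lipase maturation factor, had 1545 and 2988 counts in the IPs, against 415 and 556 in the inputs (4.18 ± 0.18). Of 144 tested symbols that start with TMEM 98 were higher and 0 lower. On the other side, centrosomal CEP genes were lower in 6 of 31 tested members (19.4%, against 9.27% of all tested genes) with 0 higher. CENPF, a kinetochore protein, had 88 and 144 counts in the IPs, against 1263 and 1172 in the inputs, and fell by 1.42 ± 0.18 on the log2 scale.

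Calls were more frequent among deeper genes. Of the 2384 tested genes with the fewest counts over the EMC6 libraries 7.17% were higher and 2.31% lower, and of the 2361 with the most 33.2% were higher and 18.2% lower. FBXO27, an F-box protein that binds glycoproteins, had 21 and 39 counts in the IPs, against 494 and 464 in the inputs, and 0 to 3 counts in each library of the other lines.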
